A study of Homo sapiens with 9 samples.

Results

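The mitochondrial ribosomal protein genes encode the protein subunits of the ribosome that works inside mitochondria. They were taken as the protein-coding genes of the deposited count table whose symbols begin with MRPL or MRPS followed by a number. This gave 76 genes of 57820 gene identifiers, 48 named MRPL and 28 named MRPS. Of these, 75 passed the filter on low counts that left 18618 genes for testing, and the remaining one, MRPL30, had at most 3 counts in a library. A further 81 identifiers carried such symbols but were not protein-coding in GENCODE 29, mostly processed pseudogenes, and were not members. MRPL45 and MRPS21 are not analysed here because no identifier of the table matched them.

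As background, the mitochondrial ribosome translates the few messenger RNAs of the mitochondrial genome, which encode core subunits of the respiratory chain. Its ribosomal RNAs are transcribed in the mitochondrion, whereas all of its proteins are encoded in the nucleus, made in the cytosol and imported. Some of these proteins descend from bacterial ribosomal proteins and others were added during the evolution of mitochondria. The symbols do not always give the subunit, since MRPS30 and MRPS18A proteins sit in the large subunit, and MRPS36 protein has been reassigned to the alpha-ketoglutarate dehydrogenase complex.

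RNA was measured in xenograft tumours that cells of A375, a BRAF-mutant human melanoma line, formed in nude mice. The first group, Dox-treated RNF4, carried an inducible construct for wild-type RNF4, a ubiquitin ligase of SUMO-modified proteins, and the mice drank doxycycline (Dox). The second, labelled RING mutant, carried the same kind of construct for RNF4 without catalytic activity, also with Dox. The third, untreated RNF4, carried the RNF4 construct that was not induced. Dox was given from day 3 after injection, tumours were taken at day 30, and each library pooled 2 tumours. Each group had 3 libraries, named by their columns. Those of Dox-treated RNF4 were T2, T5, T13, those of the group labelled RING mutant T3, T6, T14, and those of untreated RNF4 T1, T4, T12. Values of a group are given in that order throughout. GFP-expressing tumours are the stated control in the design text, but the titles give RNF4 cells with the construct off, and the titles were followed. In the comparison of RNF4 with and without Dox, effects of Dox itself and of the construct cannot be told apart. The labels do not say whether a cell line was derived from 1 clone. Replicates were separate tumour pools.

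Libraries held 16416426 to 28934692 counts. RNF4 itself had 380.1, 413 and 454 CPM in Dox-treated RNF4, against 33.4, 52 and 43.2 CPM in untreated RNF4, and the libraries labelled RING mutant had 47, 559 and 63.5 CPM, so that T3 and T14 were near the level without Dox and went against their label. The log2 change of RNF4 was 3.28 ± 0.84 (SE) for Dox-treated RNF4 against untreated RNF4 and passed no threshold after adjustment. CPM are counts scaled to a common library size with TMM factors. Cytosolic ribosomal protein genes, a set of 86, took 16.1% of counts in T2 and 26.1% in T1, against 6.53% to 9.74% in the other 7 libraries. The TMM factors of T2 and T1 were 0.891 and 0.726, against 1.02 to 1.08 in the others. Markers fixed as melanoma genes summed to 827 to 1139 CPM in Dox-treated RNF4, 961 to 1099 CPM in the group labelled RING mutant and 582 to 969 CPM in untreated RNF4. Most of each sum was AXL, a receptor tyrosine kinase, at 692, 805 and 935 CPM, 761, 785 and 890.4 CPM and 436, 647 and 774 CPM in the same groups. The melanocyte lineage factor SOX10 ran from 39 to 80.9 CPM over the 9 libraries, whereas the pigment genes were low, with TYR at 0 counts in 6 libraries and MLANA at 0.738 to 1.88 CPM. The pigment genes PMEL, DCT and TYRP1 had 10.2, 6.93 and 8.13 CPM in T14 and at most 2.04, 0.593 and 0.909 CPM in any other library. Skeletal muscle markers, 15 of 16 in the table, of which MB had 0 counts in 4 libraries and PVALB in 3, summed to 19.4 to 262 CPM, 26.2 to 1007 CPM and 24.6 to 55.8 CPM in the same groups, with the highest sum in T14. The tumours grew in mice and reads were counted on GRCh38, so the share of mouse reads in the counts of these markers, or of any gene, is not known. Because tumours are mixtures, fewer cells of a type and less RNA per cell cannot be told apart.

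Most of these genes were expressed at moderate levels. The mean over 9 libraries was above 10 CPM for 71 of 76 genes and above 100 CPM for 13. Levels of different genes were compared per length, as CPM per kb, with the median length of a gene's protein-coding transcripts in GENCODE 29. The median over the 75 tested genes was 63.5 CPM per kb, with quartiles at 32.7 and 98.6. The median was 68.7 for the 49 large-subunit genes and 44.8 for the 26 small-subunit genes. MRPS30 and MRPS18A were counted with the large subunit, here and below. MRPS36 was kept with the small subunit by its symbol.

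**Figure D1:**
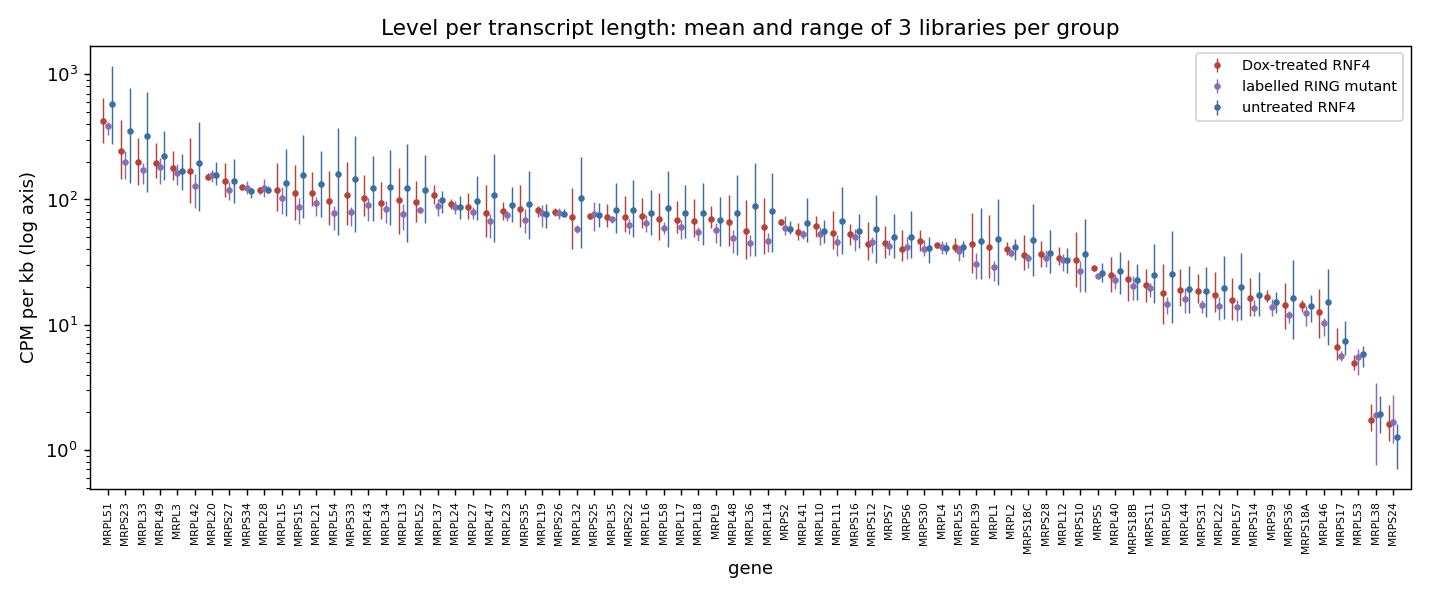
CPM per kb of the 75 tested genes on a log axis, ordered by their mean over 9 libraries. Points are group means and lines span the lowest to the highest of 3 libraries; Dox-treated RNF4 stands left, the group labelled RING mutant in the middle and untreated RNF4 right. Levels run from 461 for MRPL51 to 1.52 for MRPS24, and the ranges of untreated RNF4 are the widest for many genes.

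The 6 genes with the highest mean CPM per kb were MRPL51 (461), MRPS23 (264), MRPL33 (229.8), MRPL49 (199.5), MRPL3 (171) and MRPL42 (164). MRPL51, a large-subunit protein with no bacterial counterpart, had 326, 141 and 164 CPM in Dox-treated RNF4, 207, 210.0 and 163 CPM in the group labelled RING mutant and 582, 139 and 146 CPM in untreated RNF4. MRPL49, another protein of that kind, had 148, 79.2 and 77.3 CPM in Dox-treated RNF4, 111, 103 and 68.3 CPM in the group labelled RING mutant and 181, 88.3 and 74.7 CPM in untreated RNF4. Both were above their other values in T2 and T1, and their groups overlapped. MRPL3, the homologue of a bacterial protein near the peptidyl transferase centre, had 269.7, 172 and 158 CPM in Dox-treated RNF4, 213, 188 and 146 CPM in the group labelled RING mutant and 258, 177 and 131 CPM in untreated RNF4. The order depends on the length used, since with all exon bases of a gene only 2 of these 6 stayed among the highest 6.

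The 4 lowest genes were MRPL30, MRPS24, MRPL38 and MRPL53, at 0.0161, 1.52, 1.85 and 5.46 mean CPM per kb. All 4 share exon bases with another annotated gene on the same strand. The shared part was 19.5% of exon bases for MRPL30, 23.2% for MRPS24 (with URGCP-MRPS24), 37.5% for MRPL38 and 45.2% for MRPL53 (with CCDC142). How the authors' counting treated reads in such shared bases is not given in the sources used here, so these 4 low levels are uncertain, as is that of MRPL12, with 68.2% of its exon bases shared. In all, 7 members, MRPL33 among them, shared more than 20% of their exon bases on the same strand, and 35 shared none on either strand.

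The largest differences among libraries of these genes lay between T2 and T1 on one side and the other 7 on the other, not between the groups. The level of each gene was set against its own median over the 9 libraries, as the log2 of CPM with 0.5 added. The median over the 75 genes was 0.74 in T2, -0.08 in T5 and 0.00 in T13 for Dox-treated RNF4. In the group labelled RING mutant it was 0.22 in T3, 0.12 in T6 and -0.19 in T14. In untreated RNF4 it was 1.03 in T1, -0.05 in T4 and -0.25 in T12. One library of each RNF4 group was thus high and the other 2 were near or below 0. The median over all 18618 genes was 0.00 in each library, which the centring on each gene's own median tends to give. The upper quartile over all tested genes was 0.40 in T2 and 0.52 in T1, against 0.11 to 0.27 in the others. For the 75 genes the upper quartile was 0.99 in T2 and 1.61 in T1. T2 and T1 both exceeded all of the other 7 libraries in 59 of 75 genes (78.7%), against 23% of all tested genes and 96.4% of 83 cytosolic ribosomal protein genes.

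Without the scaling factors, the share of all counts that fell on the 76 genes was 0.65%, 0.434% and 0.439% in Dox-treated RNF4. It was 0.516%, 0.513% and 0.403% in the group labelled RING mutant and 0.725%, 0.441% and 0.392% in untreated RNF4. T2 and T1 were the highest on this scale too. T1 was the highest library for 56 of 75 genes (74.67%), against 26.65% of all tested genes and 96.4% of cytosolic ribosomal protein genes. T12 was the lowest for 37 of 75, and the share of all genes lowest there was not computed. The median SD of log2 CPM per gene was 0.45 over 9 libraries and 0.22 over the 7 without T2 and T1. It was smaller over the 7 for 65 of 75 genes. T2 and T1 were set apart after their high values were seen, so a smaller SD without them largely follows from that choice.

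**Figure D2:**
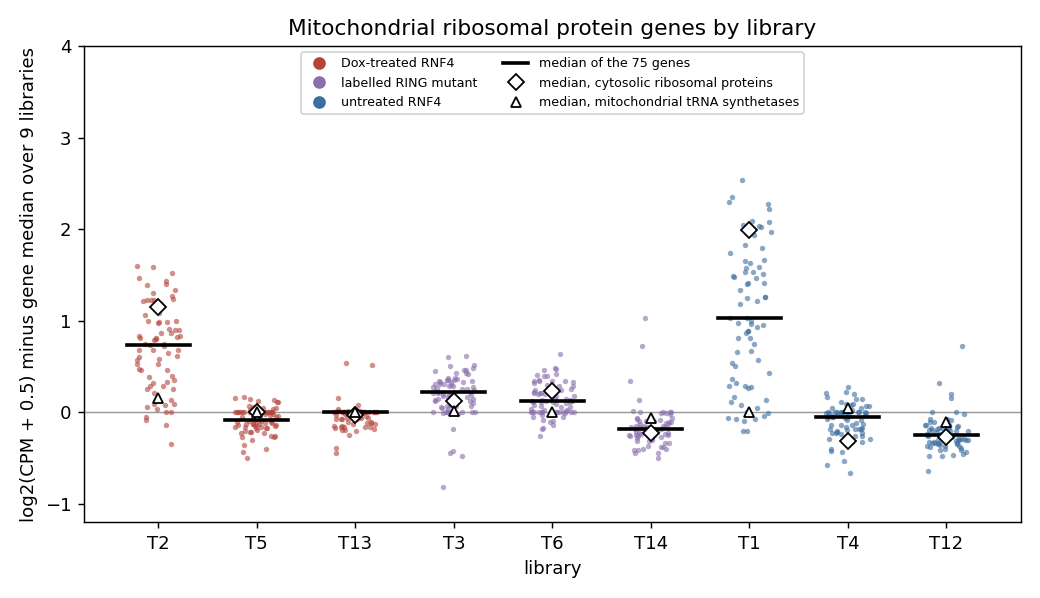
Each point is 1 of 75 genes in 1 library, as log2(CPM + 0.5) minus the gene's median over 9 libraries, coloured by group. Black lines are medians of the genes, diamonds medians of cytosolic ribosomal protein genes and triangles medians of mitochondrial tRNA synthetase genes. The medians of the genes reach 0.74 in T2 and 1.03 in T1, whereas the synthetases stay at 0.16 and 0.00 there.

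The excess in T2 and T1 was uneven among the genes. The 5 genes with the largest SD of log2 CPM over the 9 libraries were MRPL54, MRPS33, MRPL13, MRPS23 and MRPL36. MRPL54 (GRCh38, chr19:3762664-3768575), a protein at the base of the stalk, had 93.7, 34.8 and 35.4 CPM in Dox-treated RNF4, 49.1, 49.2 and 31.8 CPM in the group labelled RING mutant and 207, 31.2 and 29 CPM in untreated RNF4. MRPL36 (chr5:1798386-1801366), one of the smallest proteins with a bacterial homologue, had 60.6, 20.6 and 22.1 CPM in Dox-treated RNF4, 29, 31.9 and 21.6 CPM in the group labelled RING mutant and 118, 22.7 and 21.6 CPM in untreated RNF4. T1 stood highest and T2 next in both genes. MRPS33 (chr7), which has no bacterial counterpart, had 148, 48.8 and 46.9 CPM in Dox-treated RNF4, 65.2, 64.9 and 45.6 CPM in the group labelled RING mutant and 241, 40.6 and 42.1 CPM in untreated RNF4. MRPS23 (chr17), likewise, had 249, 85.2 and 91.8 CPM in Dox-treated RNF4, 141, 121 and 83.9 CPM in the group labelled RING mutant and 447, 78.6 and 83.3 CPM in untreated RNF4. MRPL13, the homologue of a bacterial large-subunit protein, had 154, 46 and 55.4 CPM in Dox-treated RNF4, 78.9, 69.1 and 49.5 CPM in the group labelled RING mutant and 238, 41.3 and 39.6 CPM in untreated RNF4. T1 was the highest library in all 5 of these genes, 2.09 to 2.53 above the gene's median on the log2 scale.

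The 3 genes with the smallest SD were MRPS26, MRPS34 and MRPL4. MRPS26 (chr20), a small-subunit protein with no bacterial counterpart, had 83.8, 97.2 and 88.5 CPM in Dox-treated RNF4, 96.8, 90.3 and 79 CPM in the group labelled RING mutant and 82.7, 94.4 and 83.4 CPM in untreated RNF4. MRPL4 (chr19), the homologue of a protein near the exit tunnel, had 53.9, 55.1 and 50.1 CPM in Dox-treated RNF4, 57.1, 50.6 and 44.8 CPM in the group labelled RING mutant and 49, 56.1 and 44.8 CPM in untreated RNF4. In both genes T2 and T1 lay within the range of the other 7 libraries. The 10 genes with the smallest values in T1 ran from -0.21 to 0.04 and had a median coding length of 882 bases. The 10 with the largest ran from 2.02 to 2.53 and had a median coding length of 450 bases, from 195 for MRPL33 to 771 for MRPS15.

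Coding length moved with the values of T2 and T1 across members and across all protein-coding genes. Members of up to 400 coding bases (13 genes) had a median of 0.81 in T2 and 1.51 in T1. Those of over 400 up to 600 bases (26) had 0.78 in T2 and 1.23 in T1, and those of over 600 up to 900 bases (21) 0.64 and 0.89. Members of over 900 up to 1500 bases (15) had 0.61 in T2 and 0.54 in T1. Over all tested protein-coding genes of the same 4 length classes the medians in T2 were 0.62, 0.34, 0.18 and 0.00, and in T1 1.02, 0.53, 0.21 and 0.00. In each class, both in T2 and in T1, the members' median lay above that of all protein-coding genes. As a description across 75 genes that share each library, the rank correlation of the value with coding length was -0.20 in T2 and -0.40 in T1, and with transcript GC content -0.51 in T2 and -0.42 in T1. For the members, the correlations with coding length ran from -0.53 in T6 to 0.46 in T4 over the other 7 libraries. Those with GC content ran from -0.31 in T6 to 0.33 in T12. Over 13859 protein-coding genes, the correlation with coding length was -0.40 in T2 and -0.48 in T1. In the other libraries it ran from -0.25 in T6 to 0.35 in T12. With GC content it was -0.47 in T2 and -0.39 in T1, against -0.23 in T3 to 0.34 in T12 in the others. The part of length and GC content in the excess of T2 and T1 was not tested. MRPL1, MRPL39 and MRPS35 are longer genes that were high in T1, at 1.93, 1.48 and 1.41; these 3 were chosen after their values were seen.

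**Figure D3:**
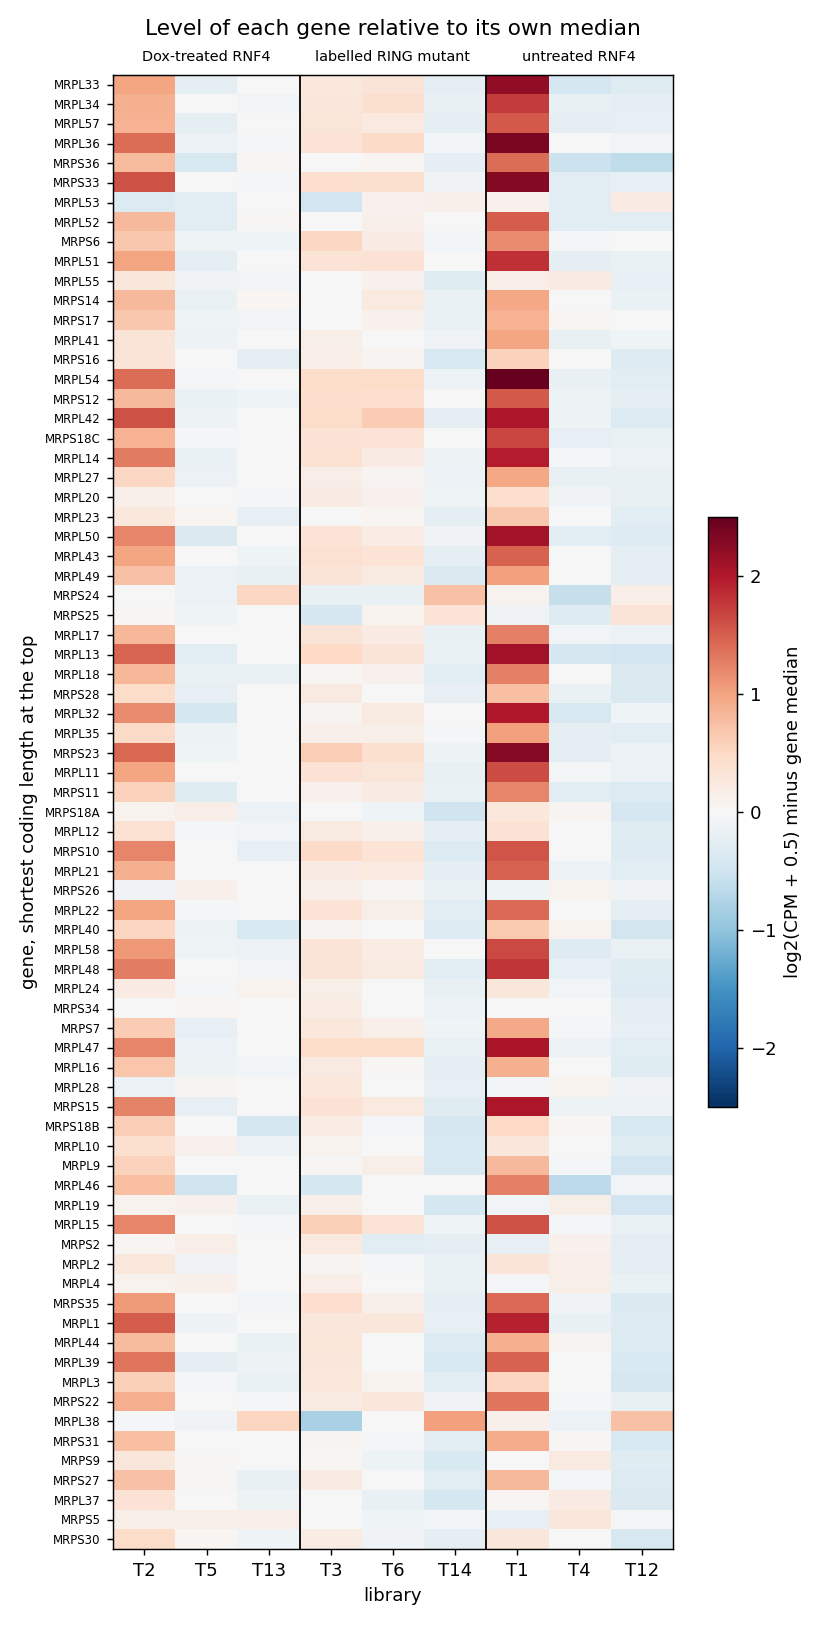
Rows are the 75 genes from the shortest coding length at the top to the longest at the bottom, and columns the 9 libraries by group; colour is log2(CPM + 0.5) minus the gene's median. T1 and, less, T2 are red for most rows and pale for MRPS26, MRPS34 and MRPL4.

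**Figure D4:**
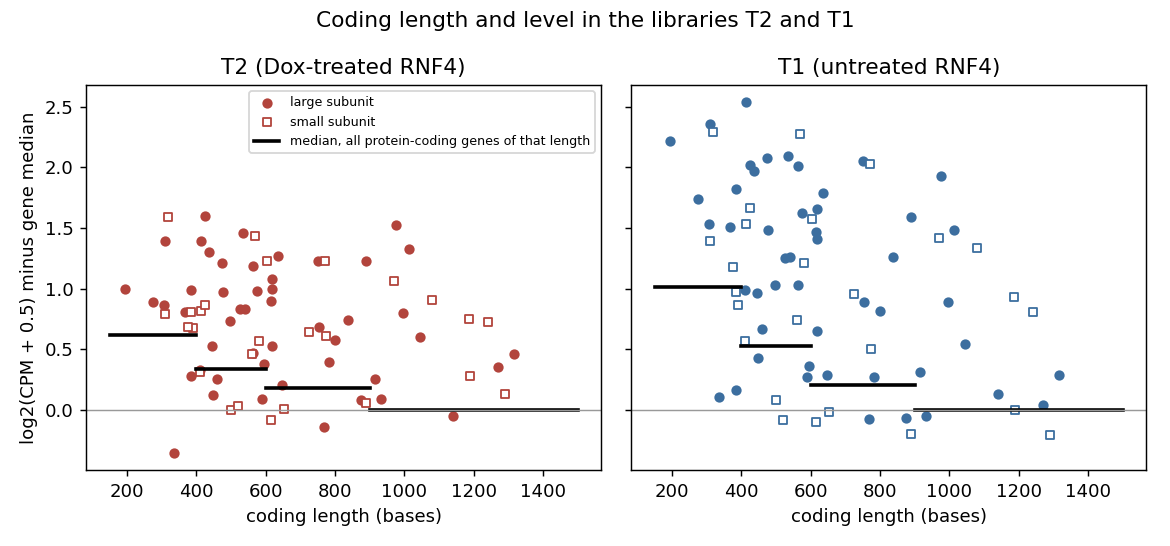
Coding length in bases against log2(CPM + 0.5) minus the gene's median, in T2 (Dox-treated RNF4, left) and T1 (untreated RNF4, right); filled circles are large-subunit and open squares small-subunit genes, and black lines the medians of all protein-coding genes in 4 length classes. Short members scatter from about 0 to 2.53 in T1.

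Because most members were high together in the same libraries, the bases before the transcript starts of 4 of them are shown. They are the 2 members with the largest and the 2 with the smallest value in T1 among those that have a promoter in the table used and share no exon bases on their strand. Each sequence holds the 250 bases before the start in RefSeq (GRCh38.p14), from 5′ to 3′ on the gene's strand, with the motif matches named next in capitals. The gene limits in GENCODE 29 differ from these starts. By those limits the sequences of MRPS2 (chr9:135499984-135504673) and MRPL36 (chr5:1798386-1801366) lie inside the gene. Those of MRPS26 and MRPL54 reach partly into it. MRPL54 (chr19:3762432-3762681, strand plus) and MRPL36 (chr5:1799838-1800087, strand minus) were 2.53 and 2.35 above their medians in T1. MRPS2 (chr9:135500432-135500681, strand plus) and MRPS26 (chr20:3045802-3046051, strand plus) were at -0.20 and -0.10.
MRPL54: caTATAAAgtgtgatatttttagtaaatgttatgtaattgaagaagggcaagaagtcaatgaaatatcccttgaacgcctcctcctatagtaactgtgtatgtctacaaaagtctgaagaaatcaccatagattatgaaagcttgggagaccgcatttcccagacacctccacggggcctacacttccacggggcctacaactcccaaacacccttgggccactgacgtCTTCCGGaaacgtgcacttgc
MRPL36: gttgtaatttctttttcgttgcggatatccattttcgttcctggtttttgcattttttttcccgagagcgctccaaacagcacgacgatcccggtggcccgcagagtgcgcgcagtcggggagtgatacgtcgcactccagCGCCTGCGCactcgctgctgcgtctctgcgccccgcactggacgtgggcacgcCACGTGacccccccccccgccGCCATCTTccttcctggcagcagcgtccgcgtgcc
MRPS2: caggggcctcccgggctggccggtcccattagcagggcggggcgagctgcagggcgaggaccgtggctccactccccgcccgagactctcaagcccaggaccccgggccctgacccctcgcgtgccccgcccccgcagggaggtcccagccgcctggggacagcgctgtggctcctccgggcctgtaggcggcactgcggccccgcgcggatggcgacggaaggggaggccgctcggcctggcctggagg
MRPS26: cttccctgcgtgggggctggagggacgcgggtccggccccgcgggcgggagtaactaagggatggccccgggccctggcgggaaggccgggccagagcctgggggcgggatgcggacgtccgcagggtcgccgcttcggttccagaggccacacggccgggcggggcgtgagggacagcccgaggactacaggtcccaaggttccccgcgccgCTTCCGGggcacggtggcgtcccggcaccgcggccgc

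Motifs were searched by their letters on both strands in 300 bases, 250 before to 50 after the start, for the 67 members with such a window. The ETS core CCGGAAG was present in 41.8% of members' windows, against 14.2% of 15842 windows of protein-coding genes. The YY1 core AAGATGGC was in 28.4% of members and 3.91% of protein-coding genes, and the NRF1 core GCGCANGCG in 17.9% and 11%. The E-box CACGTG was in 7.46% of members and 8.88% of protein-coding genes, CCAAT in 28.4% and 36.4%, and TATAAA in 2.99% and 9.63%. None of these motifs contains another. In the 4 sequences shown, the MRPL54 window held TATAAA and the ETS core, that of MRPL36 the NRF1 core, the E-box and the YY1 core, that of MRPS26 the ETS core and that of MRPS2 none of them. Members with the ETS core had a median in T1 of 1.33 (27 tested genes), and those without it 0.99 (39). With the NRF1 core it was 1.41 (11 genes) and without it 0.97 (55), with the YY1 core 1.41 (19) and without 0.97 (47), and with the E-box 1.41 (5) and without 0.97 (61); MRPL22, which holds all 3 motifs, is the middle gene each time. For CCAAT the order was the other way, at 0.96 with it (19) and 1.18 without (47), and for TATAAA it was 2.28 with it (2) and 0.98 without (64). These differences were not tested. A match is only a match of letters.

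Grouped by origin and place, each set of genes was highest in T2 and T1, with different sizes. Large-subunit genes had a median of 0.80 in T2 and 1.25 in T1, and small-subunit genes 0.68 and 0.94. The 19 large-subunit genes with no bacterial homologue stood at 0.81 in T2 and 1.48 in T1, and the 28 with one at 0.76 and 1.14. The 14 small-subunit genes with a bacterial homologue stood at 0.66 in T2 and 0.96 in T1, and the 9 without one at 0.75 and 0.93. The medians of the 5 stalk genes were 0.40 in T2 and 0.36 in T1, which fall on different genes. In T2 and T1, MRPL11 had 0.98 and 1.63, MRPL54 1.39 and 2.53 and MRPL53 -0.35 and 0.11, so that T1 was above T2. MRPL10, at 0.40 and 0.28, and MRPL12, at 0.38 and 0.36, went the other way.

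Among the stalk genes, which form the flexible arm that recruits translation factors, MRPL12 protein also binds the mitochondrial RNA polymerase. MRPL12 had 42.6, 32 and 31.1 CPM in Dox-treated RNF4, 38, 35.7 and 27.4 CPM in the group labelled RING mutant and 42.1, 32.6 and 26.5 CPM in untreated RNF4. MRPL10, its partner on the ribosome, had 128, 104 and 86.8 CPM in Dox-treated RNF4, 104, 96.8 and 74.5 CPM in the group labelled RING mutant and 117, 96.1 and 77.9 CPM in untreated RNF4. MRPL11, at the stalk base, had 98.6, 49.6 and 49 CPM in Dox-treated RNF4, 63.6, 61.2 and 43.6 CPM in the group labelled RING mutant and 154, 48.1 and 44.9 CPM in untreated RNF4. All 3 were highest in T2 and T1, and the SD of log2 CPM over the 9 libraries was 0.243 for MRPL12, 0.254 for MRPL10 and 0.609 for MRPL11. MRPS12, the homologue of a bacterial protein of the decoding centre, had 79.3, 39.9 and 41.4 CPM in Dox-treated RNF4, 60.5, 59.96 and 44.7 CPM in the group labelled RING mutant and 130.1, 40.7 and 37.8 CPM in untreated RNF4. MRPL44, next to the exit of the tunnel, had 48.3, 27.2 and 24.6 CPM in Dox-treated RNF4, 34.2, 27.6 and 21.8 CPM in the group labelled RING mutant and 51.5, 28.9 and 21.6 CPM in untreated RNF4. Both had T1 as the highest library and T2 as the next. MRPL58, a large-subunit protein of the release factor family, had 83.8, 36.2 and 35.5 CPM in Dox-treated RNF4, 48.9, 44.6 and 39.3 CPM in the group labelled RING mutant and 125, 31.2 and 34.9 CPM in untreated RNF4. MRPL41, a protein with no bacterial homologue, had 82, 59.4 and 65 CPM in Dox-treated RNF4, 72, 65.6 and 61.4 CPM in the group labelled RING mutant and 129.8, 57.2 and 60.2 CPM in untreated RNF4.

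The 3 paralogues of one bacterial small-subunit protein differed in level and in their values in T1. MRPS18A, now placed in the large subunit, had 12.1, 12.7 and 10.1 CPM in Dox-treated RNF4, 11.3, 10.5 and 7.84 CPM in the group labelled RING mutant and 13.8, 11.9 and 8.37 CPM in untreated RNF4. MRPS18B had 49.9, 32.5 and 23.9 CPM in Dox-treated RNF4, 37.3, 31.3 and 24.3 CPM in the group labelled RING mutant and 46.4, 33.5 and 24.4 CPM in untreated RNF4. MRPS18C had 35, 18.4 and 19 CPM in Dox-treated RNF4, 24.5, 24.1 and 19 CPM in the group labelled RING mutant and 61.3, 16.4 and 16.9 CPM in untreated RNF4. T1 was at 1.67 for MRPS18C, 0.51 for MRPS18B and 0.27 for MRPS18A relative to each gene's median. MRPS18A and MRPS18C share 47% and 40.2% of their exon bases with genes on the opposite strand. Of the small-subunit proteins with no bacterial homologue, MRPS22 had 114, 60.3 and 58.3 CPM in Dox-treated RNF4, 70.2, 73.8 and 56.4 CPM in the group labelled RING mutant and 153, 58.2 and 53.2 CPM in untreated RNF4. MRPS27, a pentatricopeptide repeat protein, had 251, 154 and 134 CPM in Dox-treated RNF4, 175, 152 and 127 CPM in the group labelled RING mutant and 266, 147 and 119 CPM in untreated RNF4. In both genes T2 and T1 were above all other libraries. MRPS36 had 26, 11.1 and 15.1 CPM in Dox-treated RNF4, 14.8, 15.4 and 12.4 CPM in the group labelled RING mutant and 39.8, 10.1 and 9.31 CPM in untreated RNF4.

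Dox-treated RNF4 was compared with untreated RNF4 to ask which genes differ when the ligase is induced. No member was called by edgeR's quasi-likelihood test at a Benjamini-Hochberg adjusted p under 0.05 (0 of 75; 0% of all genes), nor had any an unadjusted p under 0.05 (0 of 75; 0.596% of all genes), and DESeq2 called none at either level. No adjusted p of any gene was below 0.99998. Of all genes, 8257 had a log2 change above 0 and 10361 below, with a median of -0.03. The median log2 change of the members was -0.17, with 19 above 0 and 56 below. The values ran from -0.70 to 0.35. Libraries of the groups did not overlap in the higher direction for 1 of 75 members (0.875% of all genes) and in the lower direction for 0 of 75 (1.44%).

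The member without overlap was MRPS34, a small-subunit protein with no bacterial homologue (GRCh38, chr16:1771890-1773155), which had 127, 131 and 128 CPM in Dox-treated RNF4, against 126, 126 and 107 CPM in untreated RNF4. Its log2 change was 0.11 ± 0.18 (SE, as for all changes below), and the lowest value with Dox lay just above the highest without. Of the 4 genes with the smallest p below 0, MRPL33, the homologue of a small bacterial protein, had 142, 59.7 and 71.3 CPM in Dox-treated RNF4, against 334, 52.5 and 57.8 CPM in untreated RNF4 (log2 change -0.70 ± 0.66). The other 3 were MRPL36 (-0.65 ± 0.66), MRPL54 (-0.70 ± 0.72) and MRPL41 (-0.26 ± 0.31), and in each of these 4 genes T1 was the highest of the 6 libraries. Without T1 the log2 change of MRPL33 was 0.74, of MRPL36 0.65, of MRPL54 0.88 and of MRPL41 0.24. Of the 4 with the smallest p above 0, MRPS2, a small-subunit protein with a bacterial homologue, had 97.9, 106 and 94.2 CPM in Dox-treated RNF4, against 82, 102 and 80.1 CPM in untreated RNF4 (log2 change 0.18 ± 0.20). The others were MRPS30 (0.17 ± 0.24), MRPS5 (0.12 ± 0.17) and MRPS24 (0.35 ± 0.52). All 8 unadjusted p in edgeR were between 0.32 and 0.52.

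Dox-treated RNF4 was then compared with the group labelled RING mutant. By the labels this sets the active ligase against the inactive one under the same Dox treatment. The groups carried different constructs, so differences between the lines and of ligase activity cannot be told apart. No member was called by edgeR (0 of 75; 0% of all genes) and none had an unadjusted p under 0.05 (0 of 75; 1.35% of all genes); DESeq2 called none at either level. Of all genes, 10380 had a log2 change above 0 and 8238 below, with a median of 0.03. The median log2 change of the members was 0.21, with 67 above 0 and 8 below. RNF4 in T3 and T14 went against the label of the group, and without both, which leaves T6 alone, the median was 0.11 with 58 above 0 and 17 below. The groups did not overlap for 1 member in the higher direction (2.71% of all genes) and for 0 in the lower (2.27%). This member was MRPS5, the homologue of a bacterial protein of translational accuracy (GRCh38, chr2:95087207-95149434), which had 46.5, 46.8 and 47.2 CPM in Dox-treated RNF4, against 42.2, 39.1 and 40.5 CPM in the group labelled RING mutant (log2 change 0.21 ± 0.17).

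The other genes with the smallest p above 0 had MRPL37 (0.29 ± 0.23), MRPS9 (0.25 ± 0.21) and MRPS31 (0.37 ± 0.35) as log2 changes. MRPL37, a large-subunit protein with no bacterial homologue, had 172, 134 and 123 CPM in Dox-treated RNF4, against 134, 119 and 98.7 CPM in the group labelled RING mutant. MRPS31, likewise without one in the small subunit, had 37.4, 22 and 21.9 CPM in Dox-treated RNF4, against 23.2, 21.6 and 18.2 CPM in the group labelled RING mutant. In both, T2 was the highest of the 6 libraries and T5 and T13 overlapped with the group labelled RING mutant. Below 0, the 4 with the smallest p were MRPL53 (-0.17 ± 0.31), MRPS25 (-0.06 ± 0.24), MRPL28 (-0.05 ± 0.19) and MRPL38 (-0.12 ± 0.52). MRPS25, a small-subunit protein with no bacterial homologue, had 98.6, 90.04 and 96.4 CPM in Dox-treated RNF4, against 71.9, 102 and 123 CPM in the group labelled RING mutant, and T3 and T14 were the lowest and the highest of the 6.

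The group labelled RING mutant was also set against untreated RNF4. These groups differ both in the construct line and in Dox, so effects of the line, of Dox and of the mutant cannot be told apart. RNF4 in T3 and T14 was also near the level without Dox. No member was called by edgeR (0 of 75; 0% of all genes), none had an unadjusted p under 0.05 (0 of 75; 1.75%), and DESeq2 called none at either level. Of all genes, 8050 had a log2 change above 0 and 10568 below, with a median of -0.04. The median log2 change of the members was -0.33, with 9 above 0 and 66 below. Without T3 and T14 it was -0.25, with 13 above 0 and 62 below. Values ran from -1.04 for MRPL54 to 0.40 for MRPS24. The groups did not overlap in 0 of 75 members in the higher direction (1.2% of all genes) and in 0 of 75 in the lower (2.58%). The test of any difference among the 3 groups gave 0 members with an unadjusted p under 0.05 (1.1% of all genes), the smallest being 0.353.

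Below 0, the 4 with the smallest p were MRPL36 (-0.97 ± 0.67), MRPL54 (-1.04 ± 0.73), MRPS15 (-0.85 ± 0.61) and MRPL33 (-0.91 ± 0.66). MRPS15, the homologue of a bacterial protein that binds small-subunit RNA, had 103, 94.6 and 64.3 CPM in the group labelled RING mutant, against 328, 72.8 and 72.1 CPM in untreated RNF4, so that T1 alone lay above the 3 libraries labelled RING mutant and T4 and T12 lay among them. Above 0 they were MRPS24 (0.40 ± 0.52), MRPS34 (0.10 ± 0.18), MRPL28 (0.06 ± 0.19) and MRPS26 (0.03 ± 0.17). MRPL28, the homologue of a bacterial large-subunit protein, had 117, 96.6 and 83.3 CPM in the group labelled RING mutant, against 91.7, 102 and 90.8 CPM in untreated RNF4, and the groups overlapped.

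The direction of the median change depended on T1 in the comparisons with untreated RNF4. For Dox-treated RNF4 against the group labelled RING mutant it depended on T2. Without T1 and T2 together, the median log2 change of the 75 members was 0.10 for Dox-treated RNF4 against untreated RNF4, with 61 above 0. It was -0.15 for Dox-treated RNF4 against the group labelled RING mutant, with 13 above 0. For the group labelled RING mutant against untreated RNF4 it was 0.24, with 65 above 0. Over the 18557 genes tested with and without T1 and T2, the medians of the 3 comparisons were -0.01, -0.02 and 0.02. Of these genes 9001, 8637 and 9736 were above 0 in the 3 comparisons. In the last comparison, with 3 libraries against 2, 15 of 75 members had an unadjusted edgeR p under 0.05 in the higher direction. This was so for 2.69% of all genes. None of the members had such a p in the lower direction, and none was called after adjustment (smallest adjusted p in edgeR = 0.915). T1 and T2 were left out after the members' high values there were seen. The members also share each library, so the 15 are not separate results, and no group difference is read from this count. Among the 15 were MRPL13 (0.72), MRPL42 (0.58), MRPL54 (0.55), MRPS23 (0.53) and MRPS33 (0.52), given as log2 changes. The cytosolic ribosomal protein genes had a median of 0.38 in that comparison without T1 and T2, with 21 of 83 at an unadjusted p under 0.05 and higher. Leaving out T1 alone gave 0.44 for Dox-treated RNF4 against untreated RNF4 and 0.23 for the group labelled RING mutant against untreated RNF4, and leaving out T2 alone gave -0.14 for Dox-treated RNF4 against the group labelled RING mutant.

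**Figure D5:**
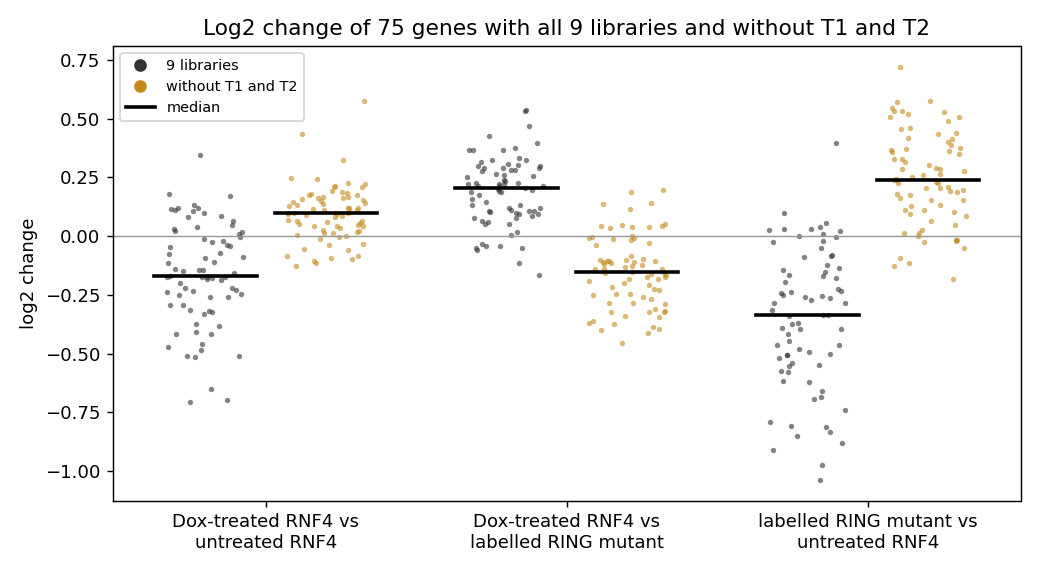
Log2 change of each of 75 genes in the 3 comparisons, from all 9 libraries (dark, left of each pair) and without T1 and T2 (ochre, right); black lines are medians. The medians are -0.17, 0.21 and -0.33 with all libraries and 0.10, -0.15 and 0.24 without T1 and T2.

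Other genes of mitochondrial translation had smaller medians in T2 and T1. The 17 tested translation factors of mitochondria had a median of 0.20 in T2 and 0.10 in T1 relative to each gene's own median. The 20 mitochondrial tRNA synthetases had 0.16 and 0.00, and the 26 assembly factors of the mitochondrial ribosome 0.27 and 0.13. Of the 5 mitoribosomal proteins with other symbols, DAP3, a GTP-binding small-subunit protein, had 177, 195 and 183 CPM in Dox-treated RNF4, 175, 184 and 151 CPM in the group labelled RING mutant and 155, 178 and 157 CPM in untreated RNF4. CHCHD1, another small-subunit protein, had 54.7, 22 and 27.1 CPM in Dox-treated RNF4, 29.3, 30.9 and 27.3 CPM in the group labelled RING mutant and 103, 22.7 and 22.8 CPM in untreated RNF4. PTCD3, AURKAIP1 and GADD45GIP1 had log2 changes between Dox-treated RNF4 and untreated RNF4 of -0.05 ± 0.28, -0.03 ± 0.19 and -0.11 ± 0.34. CHCHD1 was high in T2 and T1, and DAP3 was lower in T1 than in all but one of the other libraries.

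The ribosomal RNAs that these proteins bind followed another order. MT-RNR1, the small-subunit RNA, had 998, 478 and 747 CPM in Dox-treated RNF4, 453, 546 and 986 CPM in the group labelled RING mutant and 1587, 474 and 943 CPM in untreated RNF4. MT-RNR2, the large-subunit RNA, had 5473, 3357 and 5647 CPM in Dox-treated RNF4, 2682, 3109 and 6716 CPM in the group labelled RING mutant and 8261, 3065 and 6864 CPM in untreated RNF4. Both were higher in T13, T14 and T12 than in T5, T3, T6 and T4, with T1 the highest; these RNAs are read here after poly(A) selection. The 13 messenger RNAs of the mitochondrial genome had medians of 0.55 in T13, 0.88 in T14 and 0.59 in T12, against -0.59 in T5, -0.82 in T3, -0.41 in T6 and -0.67 in T4, with 0.00 in T2 and 0.50 in T1. None of the 2 ribosomal RNAs and 13 messenger RNAs was called in a comparison by edgeR or DESeq2.

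No gene of these lists was called by edgeR or DESeq2 in any comparison, and none of the translation factors, synthetases, assembly factors, 11 tested mitochondrial transcription genes and 12 transcriptional regulators had an unadjusted edgeR p under 0.05. By the smallest p, the translation factors led with MRRF, the ribosome recycling factor, with 48.7, 43.2 and 44 CPM in the group labelled RING mutant, against 86.1, 45.1 and 48 CPM in untreated RNF4, and with MTIF2, an initiation factor, with 105, 105 and 90.4 CPM in Dox-treated RNF4, against 89.1, 93.3 and 80.1 CPM in untreated RNF4. The synthetases led with WARS2 (log2 change of Dox-treated RNF4 against the group labelled RING mutant 0.60 ± 0.41) and NARS2 (0.33 ± 0.28). T2 was the highest of the 6 libraries in both, at 64 and 40.7 CPM, while T5 and T13 had 32.6 and 26.9 CPM for WARS2 and 22.6 and 23.5 CPM for NARS2. The assembly factors led with RPUSD4, a pseudouridine synthase (0.22 ± 0.16 in the same comparison), and TFB1M, the rRNA dimethyltransferase (-0.62 ± 0.53 for the group labelled RING mutant against untreated RNF4). In the last comparison the transcription genes led with MTERF1 (-0.46 ± 0.45) and TEFM (-0.55 ± 0.57). T1 was the highest of the 6 libraries for TFB1M, MTERF1 and TEFM, at 79.4, 61.3 and 57.2 CPM. Among the regulators, MYC, a transcription factor of growth genes, had 48.3, 42.1 and 33.8 CPM in Dox-treated RNF4. It had 28.3, 28.9 and 33.4 CPM in the group labelled RING mutant (log2 change of this comparison 0.45 ± 0.22). These groups did not overlap, although T13 and T14 nearly met. In untreated RNF4 MYC had 34.1, 49.8 and 31.7 CPM, which overlapped with both groups. DDIT3, a stress-induced factor, had 15.2, 19.2 and 16 CPM in the group labelled RING mutant, against 51, 17.1 and 19.2 CPM in untreated RNF4 (log2 change -0.79 ± 0.40).

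In the authors' deposited table all 75 tested members had an adjusted p, and none was under 0.05 in a comparison. The medians of the authors' deposited log2 fold changes were -0.18 for Dox-treated RNF4 against untreated RNF4, 0.21 for Dox-treated RNF4 against the group labelled RING mutant and -0.35 for the group labelled RING mutant against untreated RNF4.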

How the data were processed

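RNA of xenograft tumours was measured in 9 strand-specific, poly(A)-selected libraries, made from 800 ng of total RNA and read as single reads of 50 bases, per the labels' protocols. Per the submitters' processing notes, TopHat2 2.0.13, HTSeq 0.6.0 and DESeq2 1.10.1 were used with GRCh38; the annotation release and the strand setting of the counting are not given in the sources used here. The deposited tables hold raw counts per gene, which were used as they stand, and the authors' own log2 fold changes and adjusted p-values, which were only copied. Another 45 columns of values per library (18 repeats of the same counts and the authors' normalised values) were not used. Columns name a group but no sample, so libraries were grouped by column name.

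Of 57820 identifiers, 51996 matched a symbol; positions, lengths and overlaps came from GENCODE 29 by identifier, and promoters from RefSeq (GRCh38.p14). Coding length is that of the principal transcript. Counts were analysed in R 4.3.3 with edgeR 4.0.16: filterByExpr, TMM factors, a quasi-likelihood model of the 3 groups over all 9 libraries and Benjamini-Hochberg adjustment over the 18618 genes kept, with a threshold of 0.05. Tests are two-sided. The standard error is the log2 change over the square root of F. The fit was also run on simulated counts with the same spread for all genes and no effect shared within a library. These settings differ from the data here, so that run does not bear on the counts of called genes. Log2 levels add 0.5 CPM. Alternatives were other size factors and filters, a block, DESeq2 1.42.0 and leaving out libraries. Summaries and plots used Python 3.11.15, pandas 2.3.3 and matplotlib 3.10.9. p-values measure the spread between these libraries.

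Named members were those with the 4 smallest p in each direction per comparison, the 6 highest and 4 lowest levels, the 5 largest and 3 smallest SD, and a group with known roles. The members and lists were chosen with earlier results of these data known. Sums of markers of leukocytes, endothelium and fibroblasts were computed as well: 100.4 to 194, 8.42 to 41.9 and 591 to 4008 CPM per library.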

Additional observations from a re-analysis of the deposited data

How the results depend on the processing

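The median log2 change of the members kept its direction under the other size factors, the other filters, scaling without ribosomal and mitochondrial genome genes, a block for runs of column numbers, the 6 libraries compared alone and DESeq2. Leaving out 1 library at a time gave medians from -0.48 to 0.44 for Dox-treated RNF4 against untreated RNF4, -0.14 to 0.34 for Dox-treated RNF4 against the group labelled RING mutant, -0.54 to 0.23 for the group labelled RING mutant against untreated RNF4. The direction turned without T1 and T2 together, a choice made after seeing the data. The medians were then 0.098 for Dox-treated RNF4 against untreated RNF4, -0.15 for Dox-treated RNF4 against the group labelled RING mutant and 0.24 for the group labelled RING mutant against untreated RNF4. Leaving out T3 and T14 together, an alternative chosen after seeing the data in which T6 is assumed to vary like the other groups, kept the direction in all 3. The cause was not tested.

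Called genes numbered 0 in the 3 comparisons and in the test of any difference. Without a filter on low counts they numbered 3, 38, 109 and 87, and with DESeq2 3, 1, 4 and 3, in the order Dox-treated RNF4 against untreated RNF4, Dox-treated RNF4 against the group labelled RING mutant, the group labelled RING mutant against untreated RNF4, and any difference. Without T1 and T2 the third gave 1. Leaving out 1 library gave 0 to 1 in the first and in the test of any difference. None of the called genes was a member.

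In Dox-treated RNF4 against untreated RNF4, the log2 change turned its sign for MRPS30 (-0.016 to 0.36 with 1 library left out), MRPL33 (-1.18 to 0.74 with 1 library left out, 0.25 without T1 and T2), MRPL36 (-1.34 to 0.65 with 1 library left out), MRPL54 (-1.34 to 0.88 with 1 library left out, 0.22 without T1 and T2), MRPL41 (-0.46 to 0.24 with 1 library left out, 0.083 without T1 and T2). In Dox-treated RNF4 against the group labelled RING mutant, the log2 change turned its sign for RNF4 (-0.43 without T3 and T14), MRPL28 (-0.16 to 0.088 with 1 library left out), MRPS25 (-0.24 to 0.12 with 1 library left out), MRPL38 (-0.49 to 0.60 with 1 library left out, 0.029 with the block, 0.19 without T3 and T14). In the group labelled RING mutant against untreated RNF4, the log2 change turned its sign for MRPS24 (-0.14 to 0.62 with 1 library left out, -0.14 without T3 and T14), MRPL28 (-0.081 to 0.17 with 1 library left out), MRPS26 (-0.039 to 0.11 with 1 library left out), MRPL36 (-1.35 to 0.33 with 1 library left out, 0.33 without T1 and T2), MRPL54 (-1.46 to 0.54 with 1 library left out, 0.55 without T1 and T2), MRPS15 (-1.197 to 0.28 with 1 library left out, 0.29 without T1 and T2), MRPL33 (-1.31 to 0.53 with 1 library left out, 0.53 without T1 and T2). RNF4 was called in Dox-treated RNF4 against untreated RNF4 without a filter (3.27) or without T6 (3.28), and in the group labelled RING mutant against untreated RNF4 without a filter (2.40). The other 455 values of named genes kept their direction and stayed on the same side of the threshold.

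No paired analysis was possible because the count columns carry none of the replicate numbers of the titles. The block named above sets T1, T2 and T3 together, then T4, T5 and T6, then T12, T13 and T14, which no label gives as a batch; with it the medians were -0.087 for Dox-treated RNF4 against untreated RNF4, 0.094 for Dox-treated RNF4 against the group labelled RING mutant and -0.18 for the group labelled RING mutant against untreated RNF4, and no gene was called. Depth left MRPL30, with at most 3 counts in a library, without a test. Low genes and those with shared exon bases are uncertain.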
